A study of Mus musculus with 9 samples.

Results

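The regions described here are the enhancers that were active in mouse embryonic stem cells kept with leukemia inhibitory factor (LIF), measured as reporter RNA over the plasmid library that was transfected. They are all regions of the deposited list for that comparison, called mESC enhancers below. Its 4787 rows, 1 per summit, covered 4674 distinct regions, and each of these had an activity score in a further deposited table. They are 4674 of the 202373 regions in the 5 deposited lists, of which 186959 are regions of the plasmid library itself.

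The assay was FAIRE-STARR-seq in E14 cells, a mouse embryonic stem cell line grown without feeder cells. The accessible DNA in the library was prepared from E14 cells that had been given 1 µM retinoic acid (RA) for 4 h. The DNA assayed with LIF was therefore accessible in cells under the other condition. Each of 3 biological replicates combined 4 transfections of 5 µg of library. Medium was changed 12 h after transfection to medium with LIF or to medium without LIF holding 1 µM RA, and RNA was taken 4 h later. The groups are therefore E14 cells with LIF (3 samples), E14 cells with RA and no LIF (3 samples, from the same transfections) and the plasmid input (1 sample). An RARA ChIP-seq library made after 4 h with 1 µM RA (1 sample, with 1 input) enters through its peak list. The authors called peaks on merged replicates, and the lists state neither replicate values nor read counts. The spread between cultures is therefore unknown, and what follows is a description with no test of conditions. Brackets hold 95% intervals (Wilson for shares, order statistics for medians, exact Poisson for counts per 1000), which cover the counting of regions alone. The cell type could not be checked against marker genes, since the lists hold no expression values.

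In STARR-seq a candidate fragment is cloned into the transcribed part of a reporter, so that an active enhancer drives transcription of its own sequence, and its strength is the abundance of its RNA relative to its abundance in the plasmid pool. FAIRE enriches DNA depleted of nucleosomes, which includes active promoters and enhancers. LIF acts through its receptor and gp130 on JAK kinases and the transcription factor STAT3, and holds mouse embryonic stem cells in the naive pluripotent state. Because the fragments sit on plasmids, the assay reads the capacity of the DNA in the transfected cell, away from its native chromatin.

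Scores of the mESC enhancers formed a single broad peak. The authors give each region a fold enrichment of LIF over plasmid input at the summit and an activity score of unstated scale. The median score was 2.51 (2.49 to 2.54), and the middle 50% of scores lay between 2.08 and 2.98. A score of at least 3 was reached by 1139 regions (24.4%), and a score of at least 4 by 109 (2.33%, 1.94 to 2.81%). The fold had a longer upper tail around its median of 8.62 (8.47 to 8.75). It was at least 10 in 1772 regions (37.9%), at least 20 in 255 (5.46%) and at least 30 in 54 (1.16%). Most mESC enhancers were narrow, with the middle 50% of widths between 263 and 376 bp.

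At the lower edge of the list, the weakest call was chr2:28696198-28696377 (all positions are mm9, counted from 1), with a −log10 q of 1.38, a fold of 3.04 and a score of 2.24. The next, chr8:18951003-18951247, had a −log10 q of 1.40, a fold of 2.60 and a score of 0.716. The lowest fold, 2.30, was that of chr16:42875458-42875937, whose score was 1.08. Peaks just outside the list were not analysed here. Peak names are numbered up to 28102, so the listed regions are 16.6% of the numbered peaks, and the sources used here do not give the rule that kept them.

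**Figure D1:**
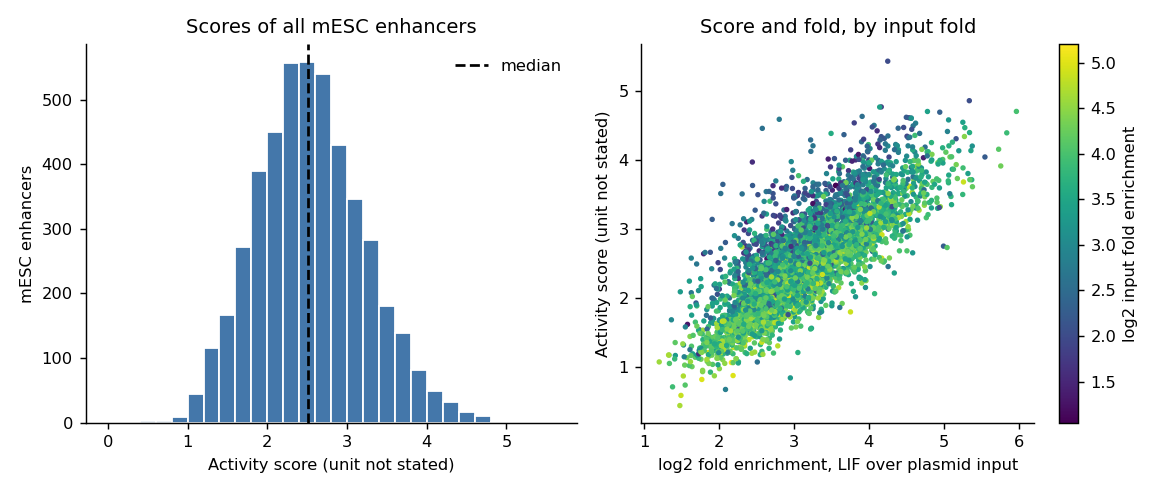
Left, the number of mESC enhancers (vertical axis) by activity score (horizontal axis, unit not stated), with the median of 2.51 dashed. Right, score against log2 fold enrichment of LIF over plasmid input for the 4622 enhancers in a plasmid input region, coloured by log2 input fold enrichment; regions with low input fold (dark) sit toward higher scores at a given fold.

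Score and fold went together over the whole list but ranked the mESC enhancers differently at the top. Over all 4674 regions their rank correlation was 0.793. Of the 467 regions in the top decile by score, 244 (52.2%) were also in the top 467 by fold. Of the top 20 by score, 3 were among the top 20 by fold (15% of each list). The 100 regions of highest score lay in plasmid DNA with a median input fold of 6.73 (6.08 to 7.67, over the 92 that overlapped an input region), and the 100 of highest fold in DNA with a median of 13.1 (12.0 to 14.6). The input fold is the enrichment of the plasmid library at that place, so it describes how well the DNA was represented in the pool. These sets of 100 share 31 regions.

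The region of highest score, chr18:7608809-7609353 with 5.42, had 2 summits and a fold of 19.1, which ranked it 308 by fold. Its input fold was 4.00, and its summit of higher −log10 q lay 456 bp from the nearest input summit. The input region it overlapped was 266 bp wide, so that summit lay outside that region. Where the cloned DNA there was centred is not known. The second, chr13:23833872-23834243, was high by both measures, with a score of 4.85 at a fold of 40.6 (rank 12). It was LIF-dependent, that is, listed by the authors as higher with LIF than after RA, and it overlapped an RARA peak of 4.09-fold. RARA is a nuclear receptor for RA.

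The third and the fourth, chr6:49225260-49225633 and chr6:139473917-139474281, both had a score of 4.76, with folds of 17.95 and 17.7. The first of them was LIF-dependent (7.66-fold over RA), and the other overlapped an RARA peak of 6.10-fold. The fifth, chr2:153171126-153171571, had the highest fold and the highest −log10 q (575) of the whole list. It was the one region within the first 10 by both measures, and it was RA-induced, that is, listed as higher after RA than with LIF. The sixth, chr1:184574527-184574788, combined a score of 4.70 with a fold of 27.5 and was LIF-dependent. The seventh, chr1:25944966-25945207, had a score of 4.69 at a fold of 24.9 and lay outside every input region.

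Some of the 20 highest scores belonged to regions of unusual shape, singled out here after their values were seen. The narrowest of the 20, chr1:10868380-10868586, was 207 bp wide and scored 4.54 at a fold of 38.2. The widest, chr7:14672883-14673853, reached 4.53 over 971 bp with a fold of 14.0 and was RA-induced. The lowest fold among the 20 was that of chr13:73594118-73594811, which had a score of 4.58 at a fold of 6.98 (rank 3155). The strongest RARA peak among them, 50.4-fold, lay at chr4:106052072-106052361, with a score of 4.49. In all, 5 of the 20 were LIF-dependent, 2 were RA-induced and 6 overlapped an RARA peak. Over all mESC enhancers these shares were 12.8%, 4.17% and 18.5%, and counts this small are not read as a difference from them.

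By fold, chr2:153171126-153171571 (62.7) was followed by chr1:8087089-8087413 with a fold of 57.4 and a score of 4.39. Next came chr9:9269207-9269673, with a fold of 54.3 and a score of 3.91, and chr7:114380205-114380810, with a fold of 53.2 and a score of 4.15. The latter overlapped an RARA peak of 10.2-fold. The 10 regions of highest fold were between 320 and 606 bp wide, and 4 of them overlapped an RARA peak, beside 18.5% of all mESC enhancers.

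Some regions ranked far apart by the measures. The largest excess of score over fold was at chr5:123764858-123765060, which ranked 376 by score (3.53) and 4582 by fold (3.64) and lay in no input region. It was followed by chr6:42111809-42112650, which ranked 291 by score (3.64) and 4469 by fold (4.14) at an input fold of 5.00. In the opposite direction, chr4:6895916-6896283 ranked 920 by fold (13.5) and 4063 by score (1.80), at an input fold of 29.3. The 5 regions with the largest excess of fold had input folds from 6.30 to 29.3 with a median of 9.28, below the median of 12.8 over all mESC enhancers in the library. Of the 5 regions with the largest excess of score, 3 lay outside every input region and none overlapped an RARA peak. All 5 with the largest excess of fold lay in an input region, and 3 overlapped an RARA peak. Over all mESC enhancers, 1.11% lay outside every input region and 18.5% overlapped an RARA peak. Sets of 5 are too small to be read as differing in RARA overlap.

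Most of the library held no listed mESC enhancer. One was listed in 4618 of the 186959 input regions (2.47%). Those input regions were better represented than the rest (median input fold 12.8 against 5.37), wider (505 bp, 495 to 511, against 323 bp, 322 to 324) and more often split into several summits (21.0%, 19.8 to 22.2%, against 3.61%, 3.52 to 3.69%). Activity and the ease of calling a peak over well represented plasmid DNA cannot be told apart in these shares.

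The share of input regions with an mESC enhancer kept climbing inside the best represented DNA. It was 0.354% in the 80471 input regions with an input fold under 5, 1.40% from 5 to 10 and 8.80% from 10 to 15. It was 24.3% from 15 to 20, 33.5% from 20 to 25 and 41.5% (36.0 to 47.4%) from 25 to 30. From 30 to 40 it was 54.3% (38.2 to 69.5%), or 19 of 35 regions. None of the 2 input regions above a fold of 40 held one. Even from 25 to 30, then, most input regions (all but 118 of 284) had no listed mESC enhancer.

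Within the decile of highest input fold, the share also went with the width and the number of summits of the input region. In the narrowest quintile of that decile (180 to 302 bp) 2.96% of input regions held an mESC enhancer (2.47 to 3.55%), and in the widest (652 to 2122 bp) 25.8% (24.4 to 27.2%). The median input folds of these quintiles were 12.4 and 14.0. Input regions with 1 summit held an enhancer in 14.1% of cases, those with 2 in 25.7% and those with 3 or more in 34.2% (28.5 to 40.4%), at median input folds of 13.4, 13.7 and 13.0. Those with more summits were also wider (medians of 401, 756 and 1058 bp), and the part of width in the overlap was not tested.

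**Figure D2:**
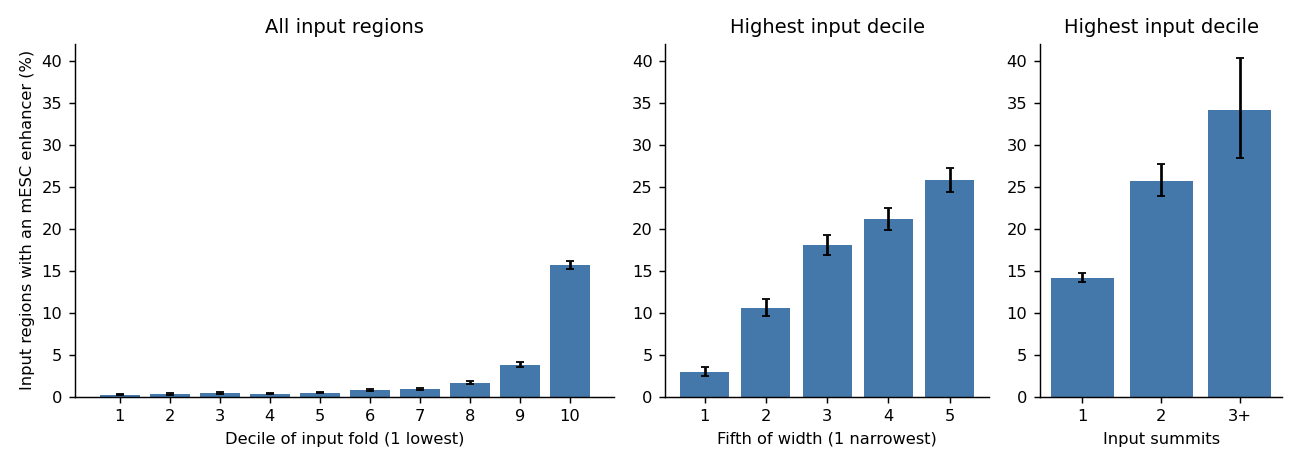
Percent of plasmid input regions that hold an mESC enhancer (vertical axes), by decile of input fold enrichment (left) and, in the highest decile, by quintile of width (middle) and number of input summits (right). Values are shown with 95% Wilson intervals; the share was 0.257% in the lowest and 15.7% in the highest decile, and 2.96% to 25.8% from the narrowest to the widest quintile.

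Summits of the mESC enhancers lay close to summits of the plasmid input. Reporter RNA is made from the same plasmid fragments, so this closeness does not show where within them the activity lay. In the 4622 mESC enhancers that overlapped an input region, the enhancer summit lay a median of 20 bp (20 to 21) from the nearest input summit. The distance was at most 10 bp in 29.8% and at most 50 bp in 80.1%. The enhancer was usually narrower than the DNA around it: 77.2% lay wholly inside an input region, and the median enhancer covered 64.6% of it (63.4 to 65.5%). Enhancers of higher fold were nearer to the input summit and filled more of the input region. From the lowest to the highest decile of fold, the median distance went from 34 bp (29 to 37) to 15 bp (12 to 17), and the covered part from 57.7% to 80.9%, while the median input folds of these deciles were 14.4 and 12.4.

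A set of 144 mESC enhancers (3.12%, 2.65 to 3.66%) had the summit over 150 bp from every input summit of the DNA they overlapped. The library represented their DNA less well, at a median input fold of 6.83 (6.08 to 8.00) against 13.0 (12.7 to 13.3) in the other 4478. Their fold over input was lower (median 7.03, 6.46 to 7.63, against 8.70, 8.56 to 8.82). Their median score of 2.63 (2.49 to 2.77) overlapped in its interval with the 2.504 (2.48 to 2.53) of the others. The region of highest score, on chromosome 18, belongs to this set.

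An input region seldom held more than 1 mESC enhancer. Of the 4618 with an enhancer, 4609 held 1 and 9 held 2, while 5 enhancers spanned 2 input regions. The best represented of the 9, chr17:24388212-24389137 with an input fold of 20.7, held enhancers 268 bp apart with scores of 1.69 and 2.56. The first of these was LIF-dependent (4.99-fold) and the other was not. The next, chr18:31727827-31728899, had the widest difference in score of the 9, with 3.49 and 1.87, and the weaker enhancer was the one that overlapped an RARA peak (5.09-fold). At chr11:101413072-101414208 the scores were 2.57 and 2.07, and neither enhancer was in another list.

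Enhancers with several summits were wider and had lower scores. The 110 mESC enhancers with more than 1 summit row had a median width of 544 bp (518 to 589) and a median score of 2.07 (1.91 to 2.18). The 4564 with a single row had 311 bp (308 to 313) and 2.52 (2.499 to 2.56). In the 108 with exactly 2 rows, the summits were a median of 293.5 bp apart and the ratio of the larger to the smaller fold was 1.41 (1.29 to 1.61). The widest mESC enhancer, chr1:124668700-124669979 with 1280 bp, had a single summit row and a score of 3.37 at a fold of 8.38. The second widest, chr7:6680475-6681707 with 1233 bp, was the one region with 4 rows, with a score of 2.78 at a fold of 15.7.

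Score and fold behaved differently along the representation of the DNA. Across the deciles of input fold of the mESC enhancers, the median score was lower at each step, from 2.98 (2.89 to 3.08) in the lowest decile to 2.22 (2.14 to 2.29) in the highest. The median fold over input stayed between 8.14 and 8.96 in all 10 deciles. The median −log10 q went from 13.6 (12.4 to 15.5) to 36.9 (33.1 to 39.3). Over the 4622 regions the rank correlation with input fold was -0.321 for the score, -0.053 for the fold and 0.296 for the −log10 q. These correlations are across regions of 1 merged library, and the fold and the −log10 q share the plasmid input with the input fold. Whether the score does is not stated. Only listed enhancers enter these comparisons and those of the next paragraph. How the unstated rule that kept them acts along the input fold was not tested.

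The difference in score was also present between enhancers of like fold. The 4622 enhancers were split at the median input fold and, separately, into quintiles of fold over input. In the middle quintile, those below the median input fold had a median score of 2.58 (2.53 to 2.62) and those above it 2.37 (2.335 to 2.39), at median folds of 8.63 and 8.62. In the highest quintile the scores were 3.49 (3.43 to 3.52) and 3.12 (3.06 to 3.17), at median folds of 17.0 and 16.7. In all 5 quintiles the enhancers of lower input fold had the higher median score, and the intervals did not overlap. The 10 mESC enhancers of lowest score had input folds from 7.05 to 31.5 with a median of 24.1, and 2 of them lay below the median of all. The lowest score, 0.445, was that of chr12:88729326-88729572, with a fold of 2.78 and an input fold of 25.4.

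**Figure D3:**
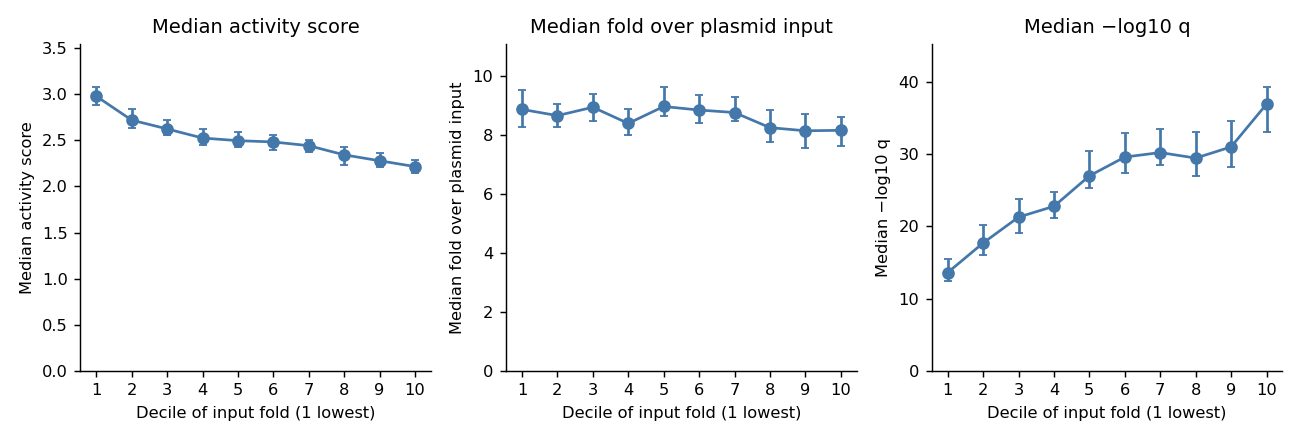
Median activity score (left, unit not stated), median fold of LIF over plasmid input (middle) and median −log10 q (right) of mESC enhancers by decile of the input fold of the region they lie in (decile 1 lowest). Points are medians of 458 to 467 enhancers with 95% order-statistic intervals; the score goes from 2.98 to 2.22 while the fold stays between 8.14 and 8.96.

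The 52 mESC enhancers that overlapped no listed input region (1.11%, 0.849 to 1.46%) had high scores and ordinary folds. Their median score was 3.23 (2.88 to 3.52), against 2.507 (2.48 to 2.54) in the 4622 others, while their median fold was 8.27 (6.73 to 9.12) against 8.62 (8.47 to 8.75). They were narrower, with a median width of 252.5 bp (234 to 268) against 313 bp (311 to 317), and their median −log10 q was 10.0 against 25.3. Nearly all were far from listed library DNA: the nearest input region was a median of 9118.5 bp away, and within 1000 bp for 5 of the 52. The strongest by score was chr1:25944966-25945207, described above. It was followed by chrX:111870557-111871130, with a score of 4.34 at a fold of 5.02, and chr5:104621129-104621388, with a score of 4.27 at a fold of 19.1. The X chromosome held 5 of the 52, or 3.97% of the 126 mESC enhancers there (1.71 to 8.95%), against 1.03% of those on autosomes (0.778 to 1.37%). By the authors' peak numbers, however, 47.1% of the numbered input peaks were listed, about 25.7% on the X and 47.7% on autosomes. Lying outside the listed regions is therefore not the same as lying outside the library. The part of this listing in the difference between the X and the autosomes was not tested.

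LIF-dependent calls were most frequent at the highest scores and in the least represented DNA. Of the 4674 mESC enhancers, 600 (12.8%) overlapped a LIF-dependent region, beside 0.311% of all input regions. The LIF-dependent list holds 601 regions in all, so the gap between these shares mainly restates how that list nests in the mESC list. By decile of score, the LIF-dependent share was between 8.97% and 14.1% in the lower 9 deciles and 20.6% (17.1 to 24.5%) in the highest. By decile of fold over input it was 15.4% (12.4 to 18.9%) in the lowest, 8.74% (6.51 to 11.6%) in the fourth and 18.6% (15.4 to 22.4%) in the highest, so both ends held more than the middle. By decile of input fold it was 22.1% (18.5 to 26.0%) in the lowest, or 103 of 467 enhancers, and between 8.66% and 14.9% in the others. Outside every input region it was 38.5% (26.5 to 52.0%), or 20 of 52. In the top score decile of the enhancers above the median input fold it was 13.9%, against 20.6% in the top score decile of all. The LIF signal enters both the fold and the LIF-dependent call, how the score was made is not stated, and the part of a shared LIF signal in these shares was not tested.

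RA-induced calls were least frequent where LIF-dependent calls were most frequent in the library. In all, 195 mESC enhancers (4.17%) overlapped an RA-induced region, beside 0.201% of all input regions. The RA-induced list holds 382 regions in all. No enhancer was in both changed lists. These lists are opposite calls on the same merged samples, so that absence is nearly fixed by their definition. By decile of input fold, the RA-induced share was 1.71% (0.871 to 3.34%) in the lowest and 6.93% (4.95 to 9.61%) in the ninth. None of the 52 enhancers outside the input regions was RA-induced, which by the limit of 3 counts over 52 allows a share of up to 5.77% (Wilson upper bound 6.88%). By decile of score the share was 5.34% (3.64 to 7.77%) in the lowest and 2.78% (1.63 to 4.70%) in the highest, and by decile of fold 2.99% (1.79 to 4.96%) and 5.78% (4.00 to 8.28%). The intervals overlapped by either measure, and the deciles between showed no steady order by score, with the highest share, 6.00% (4.18 to 8.53%), in the seventh. Above the median input fold the share was 5.54% (4.01 to 7.60%) in the lowest and 7.49% (4.90 to 11.3%) in the highest quintile of score, and below it 2.36% and 1.83%, with overlapping intervals in both sets.

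How often an RARA peak lay at a strong mESC enhancer depended on the measure of strength. RARA was mapped after RA and not with LIF, so its peaks are sites occupied in the other condition. An RARA peak was overlapped by 866 mESC enhancers (18.5%), beside 2.94% of all input regions. By decile of score the share was 16.9% (13.8 to 20.5%) in the lowest, 23.7% (20.1 to 27.8%) in the ninth and 18.4% (15.2 to 22.2%) in the highest. By decile of fold over input it was 15.8% (12.8 to 19.4%) in the lowest, 19.7% (16.3 to 23.5%) in the ninth and 31.7% (27.6 to 36.0%) in the highest, which stood above every other decile. Of the 100 enhancers of highest fold, 39 overlapped an RARA peak, and of the 100 of highest score, 20 did. The median input folds of these highest deciles were 12.4 by fold and 8.67 by score. Their median widths were 356 bp by fold and 318 bp by score, against 303 bp in the lowest decile by either measure. The part of width in the RARA overlap was not tested.

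The RARA share along the score ran differently in well and in poorly represented DNA. Above the median input fold it was 14.9% (12.3 to 17.9%) in the lowest quintile of score, 18.5% (15.1 to 22.5%) in the fourth and 30.7% (25.5 to 36.5%) in the highest. Below the median input fold it was 26.0% (21.3 to 31.3%) in the lowest quintile and between 17.8% and 19.8% in the other 4. The highest share was thus at opposite ends of the score in the 2 sets. None of the 52 enhancers outside the input regions overlapped an RARA peak (the same limits hold), and in the lowest decile of input fold 13.1% (10.3 to 16.4%) did. The split was chosen after the values were seen, and no test of the difference was made.

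**Figure D4:**
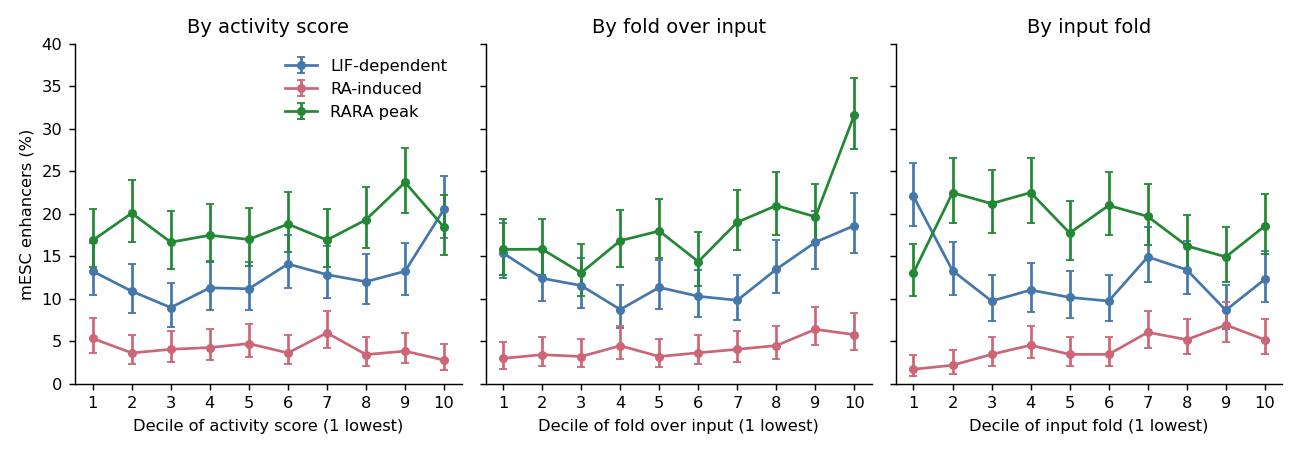
Percent of mESC enhancers (vertical axis) that overlap a LIF-dependent region, an RA-induced region or an RARA peak, by decile of activity score (left), fold over plasmid input (middle) and input fold (right, 4622 enhancers in an input region). Points are shares with 95% Wilson intervals; the RARA share in the highest decile is 18.4% by score and 31.7% by fold, and the LIF-dependent share is 22.1% in the lowest decile of input fold.

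Scores of neighbouring mESC enhancers showed next to no correlation. The median gap between neighbours on a chromosome was 218.9 kb (207.9 to 229.8), the largest gap was 12.6 Mb, and 40 pairs were less than 1000 bp apart. Over the 109 pairs with midpoints within 5 kb, Pearson's r between the scores was -0.020 and the median difference 0.733. Over the 908 pairs within 50 kb, r was 0.013 and the median difference 0.620. The SD of all scores was 0.676, which is an unlike measure, and no median difference of random pairs was computed. Both scores were in the top decile in 65 pairs of neighbours, and 9 of these had a gap under 50 kb, a count given with no baseline. The closest lay 479 bp apart, chr2:180443682-180444129 with a score of 3.95 at a fold of 31.8, and chr2:180444609-180444952 with a score of 4.32 at a fold of 23.0. The former was LIF-dependent and overlapped an RARA peak, and the latter did neither. The second pair, chr7:127743492-127743709 and chr7:127752022-127752344, had scores of 4.30 and 4.00, and the third, chr8:91576648-91577094 and chr8:91591387-91591698, had 3.67 and 3.55. None of these 4 regions was LIF-dependent or overlapped an RARA peak. In the fourth pair, the region of second highest score on chromosome 13 had a neighbour 18.8 kb away, chr13:23853047-23853630, with a score of 3.56 at a fold of 26.4. Both were LIF-dependent and both overlapped an RARA peak.

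Median score and fold differed between some chromosomes. Median scores of single autosomes ran from 2.36 (2.25 to 2.44) on chromosome 17 to 2.675 (2.56 to 2.76) on chromosome 1, and the X had 2.75 (2.55 to 2.89). Median folds ran from 7.34 (6.94 to 8.21) on chromosome 17 to 9.56 (8.54 to 10.1) on chromosome 1, with 8.40 (7.38 to 9.70) on the X. Chromosomes 17 and 1, picked as the extremes, had intervals that did not overlap by either measure. How many mESC enhancers the X held relative to the library depended on what was counted as library. Per 1000 listed input regions there were 48.9 on the X (40.7 to 58.2), while single autosomes ran from 20.3 on chromosome 12 to 30.5 on chromosome 7. The authors' peak numbers run in genome order in both lists, so the span of numbers on a chromosome gives about how many peaks were numbered there before the unstated selection. Of the numbered input peaks 25.7% were listed on the X, against 47.7% on autosomes, with single autosomes from 40.9% to 56.2%. The X thus had fewer of its numbered library peaks in the list than any autosome.

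Per 1000 numbered input peaks, the X held 12.6 mESC enhancers (10.5 to 15.0) and the autosomes 11.8 (11.4 to 12.1). On this count the X lay within the autosomal range, which ran from 8.74 on chromosome 14 (7.35 to 10.3) to 16.2 on chromosome 11 (14.6 to 17.9). The listed part of the numbered LIF over input peaks was 13.4% on the X, between the 13.0% of chromosome 14 and the 22.3% of chromosome 11. Before that selection the X had 93.8 numbered LIF over input peaks per 1000 numbered input peaks, above the autosomal range of 66.1 to 77.4. The X thus stood above every autosome when both counts were of listed regions and when both were of numbered peaks. Among these ratios it lay within the autosomal range only for listed enhancers per numbered input peak. The spans run from the first to the last listed number and so are lower bounds.

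**Figure D5:**
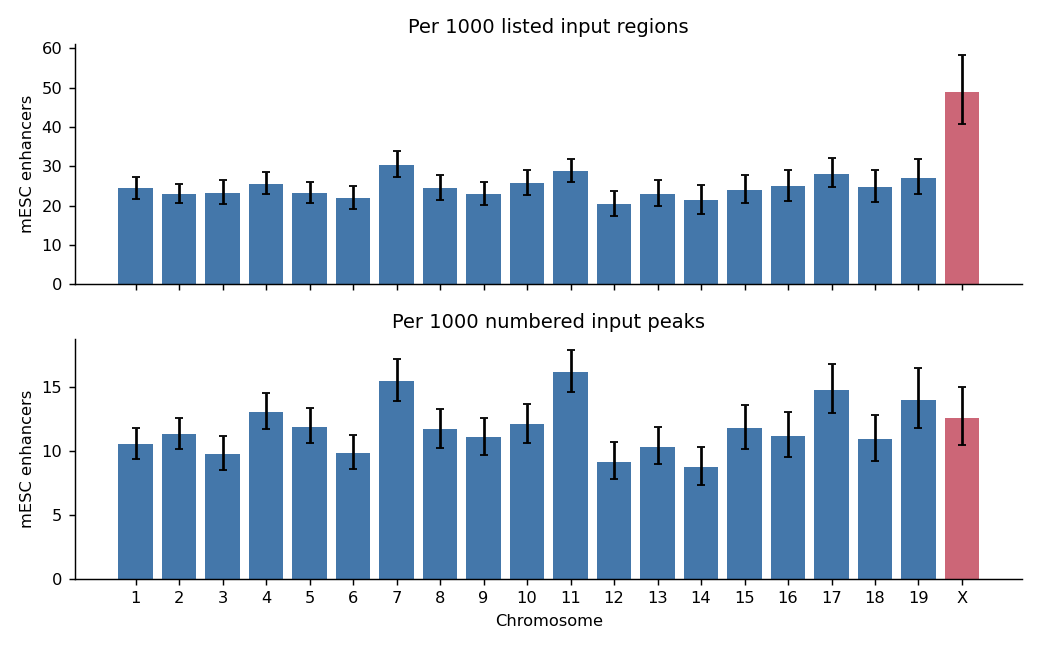
mESC enhancers per 1000 listed input regions (top) and per 1000 numbered input peaks (bottom) on each chromosome, with exact 95% Poisson intervals (X in red). The X stands at 48.9 in the top panel, above every autosome, and at 12.6 in the bottom panel, within the autosomal range of 8.74 to 16.2.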

How the data were processed

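The submitters' processing notes name MACS2, Bowtie2, SAMtools, deepTools and UMI-tools and build mm9. Their order, settings and versions were not stated in the sources used here. Deposited peak names speak of merged LIF replicates against plasmid input, so the authors made their calls on pooled replicates. Each deposited list holds, from the values and column order, a score of about 10 times the −log10 q, a fold enrichment (ratio) at each summit, the −log10 q and a summit position. The activity score is a separate deposited table of unstated making. All peak values are the authors' own.

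Rows sharing a region were collapsed to that of highest −log10 q, and overlap meant at least 1 bp. An enhancer in several input regions took the one of highest fold. The overlap and interval code was tested on simulated regions. Members and measures were chosen with earlier results of these data known. Named regions were taken in rank order of score, fold, width, disagreement of ranks and gap between strong neighbours, and the weakest calls were added. The split at the median input fold, the sets of 100, the 150 bp distance and the use of peak numbers were chosen after values were seen. No mm9 genome or annotation was used here, so genes, motifs and sequences are not given. Software was Matplotlib 3.10.9, SciPy 1.17.1, pandas 2.3.3, NumPy 2.4.6 and Python 3.11.15.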

Additional observations from a re-analysis of the deposited data

How the results depend on the processing

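No paired analysis was possible because the lists come from merged replicates and no replicate has values of its own, which also prevented leaving replicates out. Of 29 alternatives 14 stayed within the 95% interval of the reported value. The median score of 2.51 became 2.79, and the median fold of 8.62 became 11.9, in the 50% of enhancers with the highest −log10 q; there the rank correlation of score with input fold was -0.413 and the median summit distance 18 bp. Over all enhancers that distance was 22 bp to the input summit of highest −log10 q. The share of enhancers in an input region was 98.0% when 50% of the enhancer had to be covered and 98.4% by summit. In the highest input decile the share with an enhancer was 17.9% with deciles of −log10 q and 11.2% in input regions 300 to 400 bp wide, the latter added after the values were seen. The RA-induced share of the top decile was 2.78% by score and 5.78% by fold. The RARA share of the top score decile was 12.0% with the stronger 50% of RARA peaks, 31.7% by fold deciles and 31.6% above the median input fold; the LIF-dependent share was 20.6%, and 13.9% above the median input fold. These splits at the median, and the numbered peaks below, were also added after the values were seen. The ratio of the highest to the lowest chromosome was 2.41 per listed input region and 1.85 per numbered input peak. The cause of these changes was not tested. No read counts were given, which leaves the error of a single peak value unmeasured.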
